A study of Mus musculus with 6 samples.

Results

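The ERBB receptor genes and their negative regulators were taken as 10 genes: the receptor genes Erbb2, Erbb3, Egfr and Erbb4, the inhibitor gene Errfi1, the LRIG genes Lrig1, Lrig2 and Lrig3, and the ubiquitin ligase genes Rnf41 and Cbl. They were chosen by symbol and not by a rule on their values, but with earlier results of these data known. All 10 were measured, among 19938 genes in all. Each had a single probe set (the group of probes that reports a gene) paired with that gene alone in the platform annotation. The cells were Melan-Ink4a, an immortal melanocyte line from the skin of C57BL/6J mice, and cells of both groups were null for the Ink4a-ARF1 locus. In the NRG1 group, 3 samples had been kept with 10 nM NRG1-beta1 for 21 days, and in the untreated group 3 samples had not. The treatment text of the labels is the same for all 6 samples and describes the NRG1 treatment, so the groups rest on the sample titles, with which the source names match. The labels give no matching time in culture for the untreated cells. Both groups grew in medium with 10% serum, 200 nM of the phorbol ester TPA, an activator of protein kinase C, and 200 pM cholera toxin, which raises cyclic AMP, and RNA was taken at 90% confluence. All samples come from this single line, so the comparison describes that line.

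ERBB receptors are receptor tyrosine kinases that signal as pairs. NRG1, the growth factor neuregulin 1, binds ERBB3 and ERBB4. ERBB3 has little kinase activity of its own and signals mainly through a partner such as ERBB2, which has no known ligand, and the pair feeds the PI3K-AKT and RAS-ERK pathways. Several proteins limit this signal: ERRFI1 (also called MIG6) binds and blocks the kinase domain, LRIG1 and the ubiquitin ligases CBL and RNF41 (also called NRDP1) promote the loss of receptor protein, with RNF41 acting on ERBB3. In melanocytes, which arise from the neural crest, ERBB3 is the main receptor for NRG1. The comparison asked which transcripts differ after prolonged NRG1/ERBB3 signalling, and the receptor system itself is described here.

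The platform was the Affymetrix Mouse Gene 1.0 ST array, and levels are the deposited log2 values, on which a difference of 1 is a doubling of the signal. Array medians lay between 6.99 and 7.07 over all probe sets, and correlations across genes were 0.996 to 0.997 within a group and 0.981 to 0.986 between groups. An array has no read depth, and its precision is limited by the 3 arrays a group. The labels do not say whether these came from separate cultures, and p-values then cover only the differences among these samples, possibly technical ones. Beside the marker counts that follow, limma called 20.9% of all genes, 12.3% rising and 8.56% falling. Melanocyte markers were present at list means of 12.3 with NRG1 and 12.7 to 12.8 without. Tyr, Tyrp1, Dct, Pmel, Mlana and Mitf, 6 of the 7 markers, fell, and the list median was -0.45. Sox10 was not called, at 0.056 with its NRG1 values wholly above the untreated values (limma, adjusted p = 0.565). Markers of keratinocytes, which depend on EGFR, had list means of 5.89 to 6.06 over the 6 arrays, 8 of 8 lay below the median gene, and 0 were called by limma, with 0 at an unadjusted p under 0.05. Of the fibroblast markers Col1a1 alone was called among 8, at 0.86 higher. Col1a2 went the other way, at -0.27 (limma, adjusted p = 0.0551), and the list median was -0.051. Of the endothelial and blood cell markers Cd68 alone was called among 8, at 0.23 higher. Kdr was at -0.21 (limma, adjusted p = 0.112), and the median of that list was -0.037. Of 5 Schwann cell markers measured, Gfap and Cdh19 rose by 0.24 and 0.38. The other 3 were not called, with Pmp22 and Egr2 each at -0.15 and Mbp at 0.011, and the list median was 0.011. The part of these shifts in the values below was not tested. In RNA from whole cultures, fewer cells of a type and less RNA per cell cannot be told apart.

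Transcripts of the receptor system differed little between the groups, by about as much as those of the median gene. Of the 10 genes, Cbl rose, 0 fell and 9 were not called (limma, Benjamini-Hochberg adjusted p under 0.05 over all genes), where 20.9% of all genes were called, 12.3% rising and 8.56% falling. A gene is said to have risen or fallen only where it passed that test. The largest change was that of Cbl, 0.28 on the log2 scale or 1.21-fold, and no 95% interval of the 10 reached beyond a rise of 1.34-fold or a fall of 1.25-fold. The intervals are those of the limma fit, one gene at a time. Changes were positive for 5 genes and negative for 5, with a median of -0.0045 against -0.029 over all genes, and the median absolute change was 0.12 against 0.10 over all genes. The NRG1 values lay wholly above the untreated values for Erbb3, Errfi1 and Cbl and wholly below them for Rnf41, which is 4 of 10 where the values of 36.7% of all genes did not overlap, 18.6% with NRG1 higher and 18.1% with NRG1 lower. At an unadjusted p under 0.05 limma passed 3 of the 10, Erbb3, Rnf41 and Cbl, against 32.0% of all genes. For 1 gene at 3 arrays a group, the smallest p of a 2-sided exact permutation test is 0.1, and the 4 genes without overlap had that value.

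**Figure D1:**
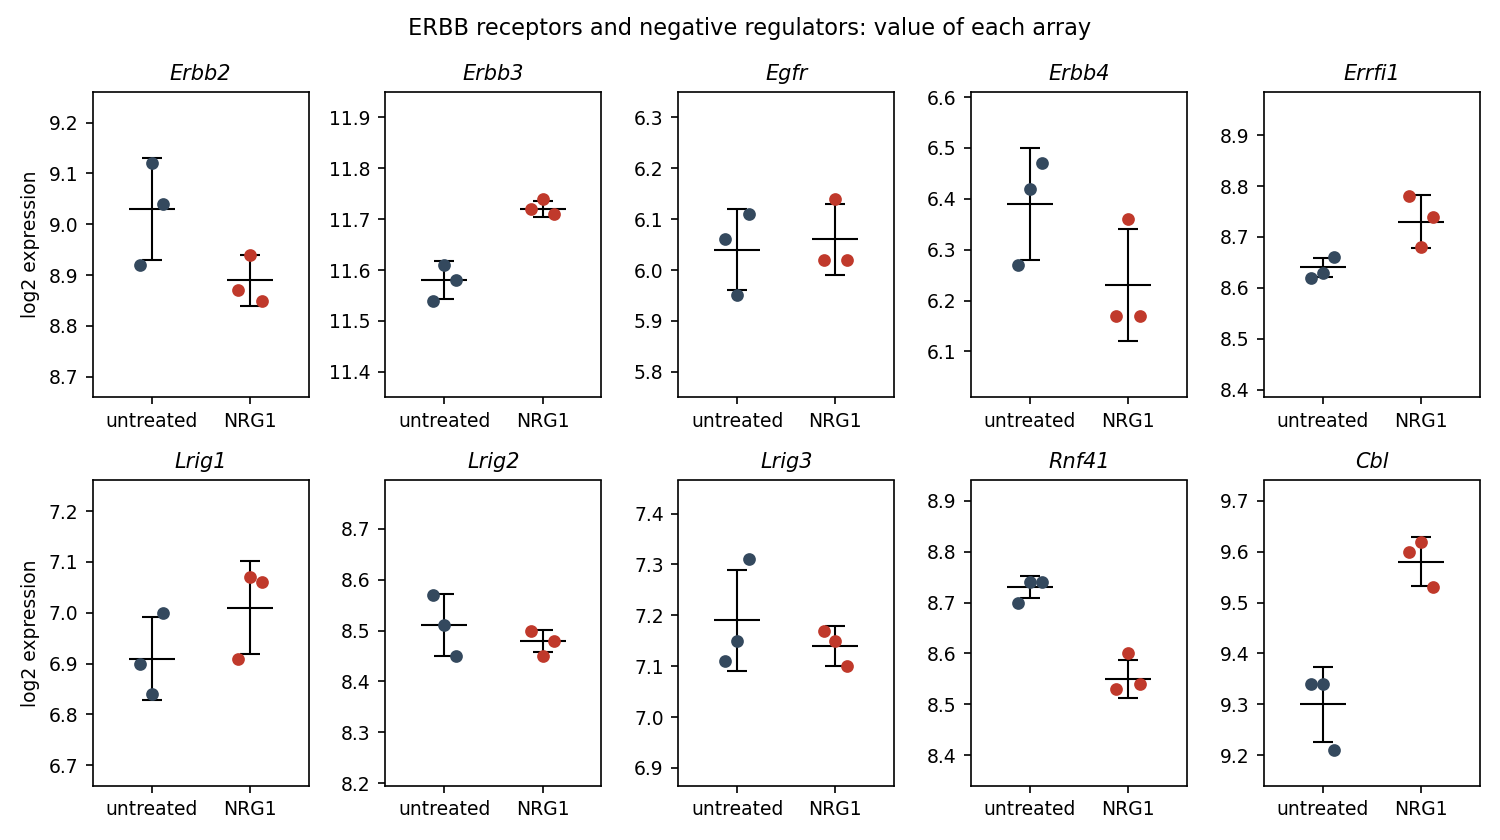
Log2 expression of the 10 genes on each array (points), with the mean (bar) and SD (whiskers) of 3 untreated (dark) and 3 NRG1 arrays (red); every panel has its own level but the same span of the axis. The NRG1 points stand wholly above the untreated points for Erbb3, Errfi1 and Cbl and wholly below them for Rnf41, and the groups overlap for the other 6 genes.

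Among the receptor genes, none of the 4 was called by limma. Erbb3, the receptor that binds NRG1 in this lineage, was at 11.72, 11.74 and 11.71 with NRG1 and at 11.54, 11.61 and 11.58 without. All 3 treated arrays lay above all 3 untreated arrays, and the SD within a group was 0.015 with NRG1 and 0.037 without (n = 3 each). The difference of 0.15 ± 0.057 (SE) had a 95% interval from 0.019 to 0.27, equal to 1.01-fold to 1.21-fold, and did not pass over all genes (limma, adjusted p = 0.105). In 16 alternative fits it stayed positive, from 0.10 to 0.17, with adjusted p from 0.0129 to 0.292, and 3 of the 16 called it.

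Erbb2, the signalling partner of ERBB3, was at 8.87, 8.94 and 8.85 with NRG1 and at 8.92, 9.12 and 9.04 without. Its groups overlapped, since untreated replicate 1 lay below NRG1 replicate 2, and the other untreated arrays lay above every NRG1 array. The difference was -0.14 ± 0.069 (SE), with an interval from -0.30 to 0.012 (limma, adjusted p = 0.191). It was negative in all 16 alternative fits, from -0.20 to -0.072, with adjusted p from 0.0428 to 0.399, and was called in 1, quantile normalization over the tested genes only.

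The difference between Erbb3 and Erbb2 within an array does not depend on how arrays are scaled by a constant. It was 2.85, 2.79 and 2.86 with NRG1 and 2.62, 2.49 and 2.53 without, so that the groups did not overlap. The means were 2.84 ± 0.035 and 2.55 ± 0.067 (SD, n = 3 each), a difference of 0.29 on the log2 scale (2-sided exact permutation test, p = 0.1, the smallest it can give, so that it could not pass a threshold of 0.05). Probes differ in brightness, so the size of this difference in a single array says nothing of how much more Erbb3 than Erbb2 transcript the cells held.

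Egfr, the receptor for EGF, TGFA and related ligands, and Erbb4, the other receptor that binds neuregulins, both had levels below the median gene, where array signals are compressed and a difference can be understated. Both lay within the range of the gene means of the keratinocyte markers, 4.70 to 6.89. Whether either transcript was present above background was not tested. Egfr was at 6.02, 6.14 and 6.02 with NRG1 and at 6.06, 5.95 and 6.11 without. NRG1 replicate 2 lay above all untreated values and the other NRG1 arrays within their range, and the difference of 0.021 ± 0.067 (SE) had an interval from -0.13 to 0.17 (limma, adjusted p = 0.872). Erbb4 was at 6.17, 6.36 and 6.17 with NRG1 and at 6.27, 6.42 and 6.47 without. NRG1 replicate 2 lay inside the untreated range and the other NRG1 arrays below it, at a difference of -0.15 ± 0.078 (SE) with an interval from -0.33 to 0.024 (limma, adjusted p = 0.223). None of 15 alternative fits called either gene, with adjusted p from 0.49 to 0.98 for Egfr and from 0.11 to 0.479 for Erbb4. Erbb4 remained negative in those 15 fits, from -0.21 to -0.077.

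**Figure D2:**
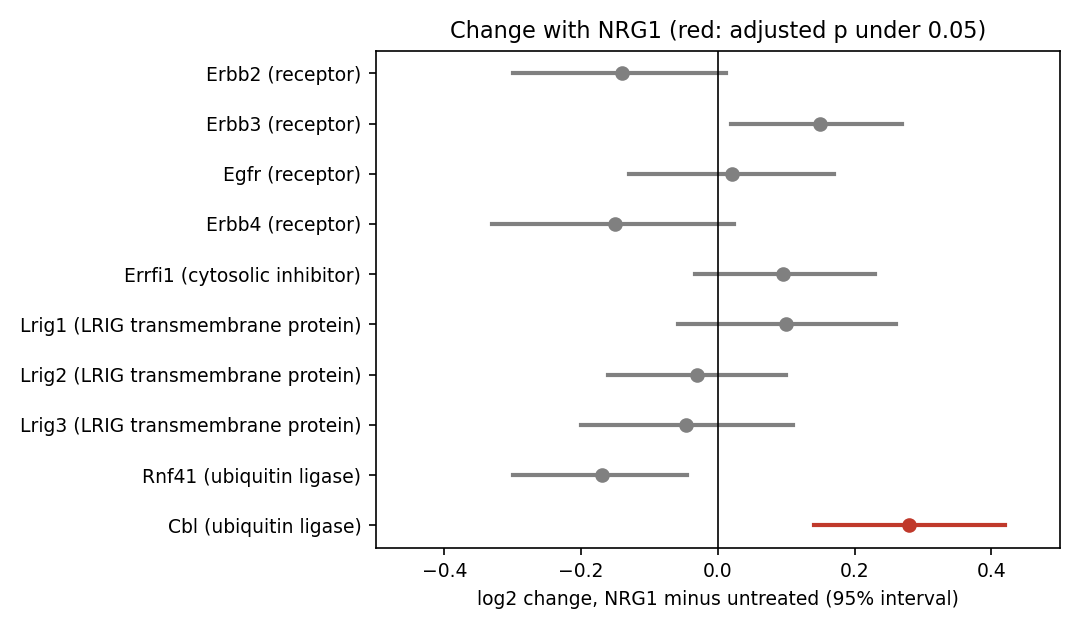
Log2 change of each gene, NRG1 minus untreated (points), with its 95% interval from the limma fit across all genes (lines); red marks an adjusted p under 0.05. Cbl, at 0.28, is the gene marked red, the intervals of Erbb3 and Rnf41 also stay on one side of 0, and every interval ends within -0.33 and 0.42.

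Errfi1, whose product blocks the ERBB kinase domain and whose transcription is known to be raised by ERBB signalling, was at 8.78, 8.68 and 8.74 with NRG1 and at 8.62, 8.63 and 8.66 without. The groups did not overlap, but the lowest treated array stood only just above the highest untreated array. The difference was 0.096 ± 0.059 (SE), with an interval from -0.034 to 0.23 (limma, adjusted p = 0.301). In 16 alternative fits it lay between 0.032 and 0.12 and was called in 0, with adjusted p from 0.14 to 0.734. The upper end of the interval corresponds to 1.17-fold, so a rise in the Errfi1 signal larger than that lies outside the interval.

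The LRIG genes encode transmembrane proteins with leucine-rich repeats and immunoglobulin-like domains, of which LRIG1 is the member best known as an ERBB inhibitor. Lrig1 was at 6.91, 7.07 and 7.06 with NRG1 and at 6.90, 6.84 and 7.00 without. Replicates 2 and 3 with NRG1 lay above all untreated arrays and replicate 1 lay within their range, for a difference of 0.099 ± 0.071 (SE) with an interval from -0.058 to 0.26 (limma, adjusted p = 0.385). Lrig2 was at 8.50, 8.45 and 8.48 with NRG1 and at 8.57, 8.51 and 8.45 without, a difference of -0.03 ± 0.06 (SE; limma, adjusted p = 0.786). Lrig3 was at 7.17, 7.15 and 7.10 with NRG1 and at 7.11, 7.15 and 7.31 without, a difference of -0.047 ± 0.068 (SE; limma, adjusted p = 0.696). For Lrig2 the groups overlapped, with untreated replicates 1 and 2 above every NRG1 array, and for Lrig3 the treated and untreated arrays were interleaved. The intervals ran from -0.16 to 0.10 for Lrig2 and from -0.20 to 0.11 for Lrig3. Lrig1 and Lrig3 lay below the median gene, as did Egfr and Erbb4. None of the alternative fits called an LRIG gene, and Lrig1 kept a positive change in all 15 that held it, from 0.064 to 0.15.

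The ubiquitin ligase genes differed between the groups in opposite directions, and only Cbl was called. Cbl, whose product attaches ubiquitin to activated receptors and so sends them to degradation, was at 9.60, 9.62 and 9.53 with NRG1 and at 9.34, 9.34 and 9.21 without. All treated arrays lay above all untreated arrays, with means of 9.58 ± 0.048 and 9.30 ± 0.074 (SD, n = 3 each). Cbl rose by 0.28 ± 0.064 (SE), with an interval from 0.14 to 0.42, or 1.10-fold to 1.34-fold (limma, adjusted p = 0.0102). It was called in 16 of 16 alternative fits, at changes of 0.21 to 0.31 and adjusted p from 9.51e-04 to 0.0415. Against a minimum change of 1.2-fold the rise did not pass (limma treat, adjusted p = 1). Of all genes, 15.5% changed by more than Cbl in absolute size.

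Rnf41, which encodes the ligase that directs ERBB3 to degradation, was at 8.53, 8.60 and 8.54 with NRG1 and at 8.70, 8.74 and 8.74 without. All treated arrays lay below all untreated arrays, with means of 8.55 ± 0.038 and 8.73 ± 0.022 (SD, n = 3 each). The difference of -0.17 ± 0.057 (SE) had an interval from -0.30 to -0.045 and missed the threshold (limma, adjusted p = 0.0593). In 16 alternative fits it lay between -0.23 and -0.15, with adjusted p from 0.011 to 0.179, and 6 of the 16 called it, among them both quantile normalizations. Within an array, the log2 difference between Cbl and Rnf41 was 1.07, 1.02 and 0.99 with NRG1 and 0.64, 0.61 and 0.47 without. That pair was picked after its values were seen, as the highest and the lowest change of the 10 in the main fit, so the higher difference with NRG1, by 0.45, is given as a description with no test.

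**Figure D3:**
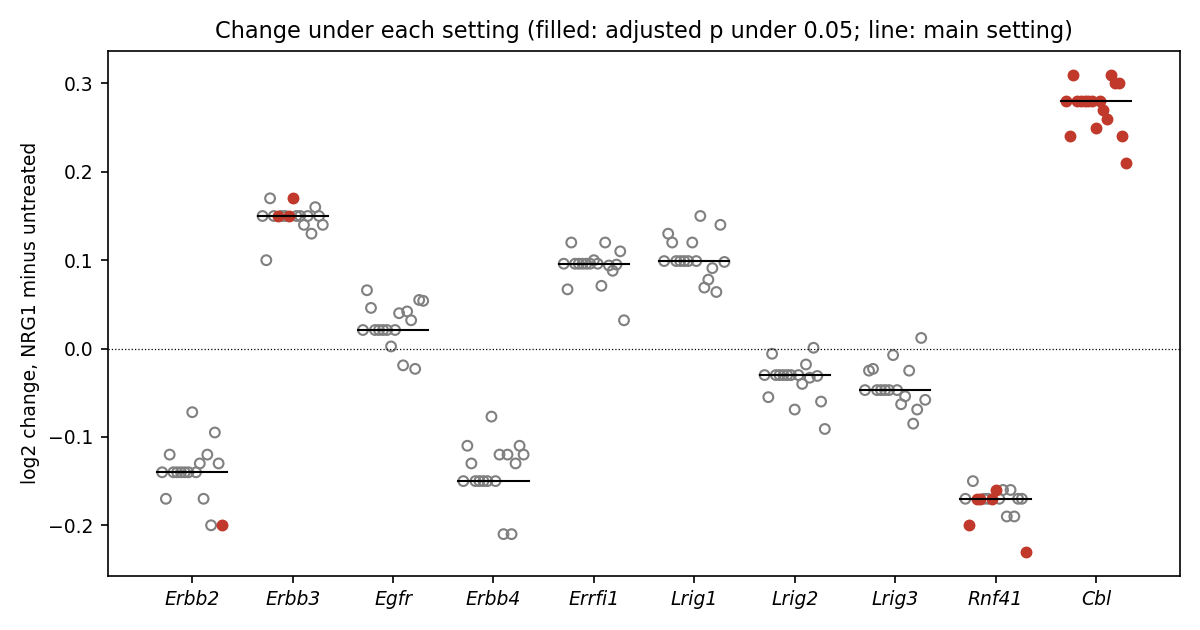
Log2 change of each gene under the main setting (black line) and under each alternative (circles, slightly spread sideways); filled red circles have an adjusted p under 0.05. Cbl is filled throughout, at 0.21 to 0.31, Rnf41 in 6 and Erbb3 in 3 alternatives, Erbb2 in 1, and the other 6 genes in none; the test against a minimum change is not drawn.

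The standard errors of the 10 genes lay between 0.057 and 0.078, against a median of 0.071 over all genes. The limma fit draws the variance of each gene toward a value shared by all genes, so these are alike in part by construction. The SD within a group, which is not adjusted in that way, ranged more widely, from 0.015 to 0.11. Close profiles were sought among genes with ordinary symbols, leaving out gene models such as Gm or Rik names. Among these, the profiles closest to that of Cbl over the 6 arrays, by Euclidean distance between profiles centred on their means, were those of Slc30a9 (0.035), Ywhab (0.048) and Nxf1 (0.049). Those closest to Erbb3 were Khsrp (0.018), Lpcat2 (0.027) and Bcl9l (0.034). All 6 followed the step between the groups, and 6 arrays in 2 groups hold little more than that step, so the likeness is a description.

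In the wider ERBB pathway, 27 of 90 measured genes rose and 12 fell, over 8 lists of ligands, proteases, inhibitors, adaptors and effectors, with a median change of 0.022 against -0.029 over all genes. That is 43.3% called, beside 20.9% of all genes and 33.3% of the genes above the median level, where 77 of the 90 lay. The lists were drawn up with earlier results of these data known, and the difference between these shares was not tested. Of the 10 ligand genes 0 were called by limma, 3 had an unadjusted p under 0.05, and 7 lay below the median gene, where a difference can be understated. The smallest p belonged to Hbegf, the gene of heparin-binding EGF-like growth factor, at 0.18 (adjusted p = 0.0724). Of the 9 proteases that release ligands and their partners, 5 rose and 0 fell. Adam12, a membrane metalloprotease gene, went from 7.36, 7.65 and 7.62 to 10.06, 9.89 and 9.99, a rise of 5.43-fold (limma, adjusted p = 3.78e-08). The related Adam19 rose 2.16-fold, Rhbdf1, which encodes a rhomboid-like partner of ADAM17, 1.81-fold, and Adam17 itself by 0.41 on the log2 scale.

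Among 17 other genes of receptor ubiquitination and endosomal sorting, 2 rose and 3 fell. That is 29.4% called, beside 20.9% of all genes and 33.3% of the genes above the median level. All but 1 of the 17 lay above that level. Tsg101 and Eps15, which act in endosomal sorting and endocytosis, rose by 0.37 and 0.30, and Wwp1, Stam2 and Nedd4l fell by 0.26, 0.25 and 0.24. The calls of Stam2 and Nedd4l ended without NRG1 replicate 1, and that of Wwp1 without NRG1 replicate 3 (adjusted p = 0.0573, 0.066 and 0.0581, the highest in their ranges, which began at 0.00138, 0.00151 and 0.00177). The paralogs of Cbl were not called, with Cblb at -0.017 (limma, adjusted p = 0.896) and Cblc at -0.13 (adjusted p = 0.231). Usp8, whose product removes ubiquitin from RNF41, was at 0.06 (adjusted p = 0.553). Of 12 phosphatases and other inhibitors, 6 rose and 1 fell, with the tyrosine phosphatase genes Ptpn9, Ptpn6 and Ptpn2 up 1.58-fold, 1.55-fold and 1.54-fold. That is 58.3% called, and neither list was tested against the shares over all genes. The fall was that of Erbin, whose product binds ERBB2, by 0.20 (limma, adjusted p = 0.0395), and its call ended in 8 of 16 alternative fits (adjusted p from 0.00281 to 0.159), among them those without any 1 of the NRG1 arrays, without untreated replicate 1 and without untreated replicate 2, which left 0 falls.

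Downstream of the receptors, 5 of 18 adaptor and proximal effector genes rose and 3 fell. Without single arrays these counts were 4 to 5 rises and 2 to 3 falls. Shc4, a SHC family adaptor, rose 2.40-fold (limma, adjusted p = 2.28e-07), the docking protein genes Gab1 and Gab2 rose by 0.51 and 0.49 on the log2 scale, and Sos1, a RAS exchange factor gene, fell by 0.60. In the PI3K-AKT arm 3 of 13 rose and 3 fell, including a fall of 0.78 for the phosphoinositide phosphatase gene Inpp4b. Without single arrays 2 to 3 of that arm rose, and the falls stayed at 3. In the RAS-ERK arm 4 of 8 rose and 2 fell, with the kinase gene Map2k1 up by 0.45. Both falls, those of the scaffold gene Ksr1 (-0.26) and the kinase gene Araf (-0.21), ended without NRG1 replicate 1. There limma gave adjusted p of 0.0561 and 0.0687, in ranges from 0.00307 to 0.0561 and from 0.00419 to 0.104. Araf was not called in 6 of 16 alternative fits. The 4 rises became 2 without NRG1 replicate 2, NRG1 replicate 3, untreated replicate 1 or untreated replicate 3. Of 3 chaperone genes, Hsp90b1 and Hsp90aa1 rose by 0.70 and 0.56 on the log2 scale. The shares called were 44.4% of the adaptors and effectors, 46.2% and 75% of the PI3K-AKT and RAS-ERK arms, and 66.7% of the chaperones. Over all genes 20.9% were called, and 33.3% of those above the median level. The differences between these shares were not tested.

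**Figure D4:**
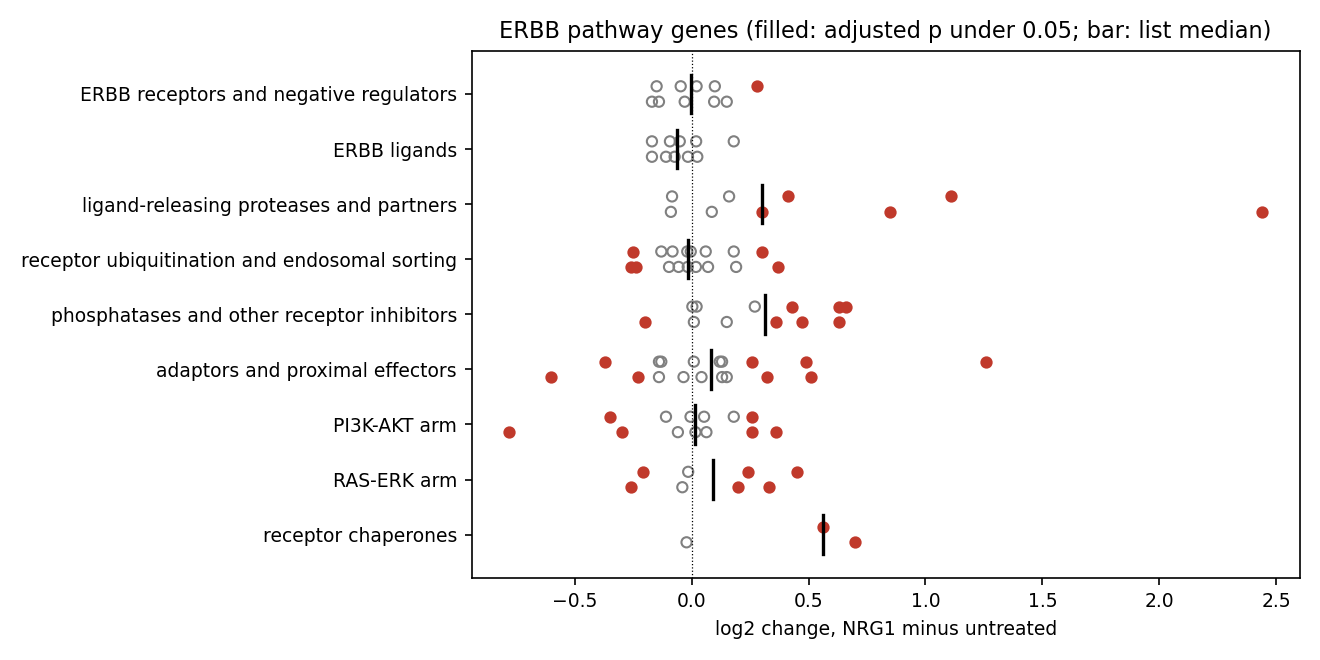
Log2 change, NRG1 minus untreated, of each gene in the 8 pathway lists and of the 10 receptor and regulator genes (top row); filled red circles have an adjusted p under 0.05, black bars are medians, and points alternate in height only to separate them. The receptor, regulator and ligand genes lie between -0.17 and 0.28, while the protease row reaches 2.44 at Adam12.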

How the data were processed

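The authors deposited log2 values per probe set, made with RMA and GCOS, per the submitters' processing notes. For the settings, versions and genome build the sources used here give nothing. The values, from 2.34 to 14.59, showed the log2 scale. RMA values are background-corrected and scaled across arrays in its usual form, which compresses differences near background. Groups came from the sample titles. Of 35557 probe sets, 21789 had 1 gene symbol, updated through Entrez numbers to RefSeq (GRCm38.p6, names only); the brightest probe set was kept for each of 19938 genes, with no filter on level. The 2 groups were compared by limma 3.58.1 under R 4.3.3 (lmFit and eBayes, 2-sided), and p-values were adjusted by Benjamini-Hochberg across all genes, with a threshold of 0.05. Changes are NRG1 minus untreated. The fit was also run on simulated data, with noise independent between arrays and far fewer changed genes than were called here. Such data cannot show how many of the calls here are right. The members and lists were chosen with earlier results of these data known. Of 138 entries in 13 lists, 126 were matched, and the others were not analysed here. The text draws on the 10 members and on up to 3 called genes per pathway list and direction whose groups did not overlap. In a list with no call it draws on the smallest p. It also draws on the 3 nearest profiles, among genes with ordinary symbols, of Erbb3 and of each called member. Adam17, Cblb, Cblc, Usp8 and the single marker genes of cell types were named outside that rule, after their values were seen. Alternatives were 2 quantile normalizations (the one over the tested genes only was added after seeing the data), median centring, 2 filters on level, all probe sets, mean probe sets, a trended robust prior, weights for arrays, a block for the replicate number, each array left out and a minimum change of 1.2-fold.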

Additional observations from a re-analysis of the deposited data

Results flagged for a closer look

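An 11th probe set carries Erbb2 in its annotation together with Sympk, which encodes the scaffold protein symplekin, and was left out of the comparison because it has 2 gene symbols. It drew attention as a signal outside the main measurement. It was at 6.36, 6.56 and 6.39 with NRG1 and at 6.02, 5.81 and 5.84 without, so all treated arrays lay above all untreated arrays. The difference was 0.55 ± 0.086 (SE; limma over all 35557 probe sets, adjusted p = 0.00735), opposite in sign to the probe set of Erbb2 alone (-0.14, adjusted p = 0.262 in the same fit). Which gene's transcript this probe set measured was not tested.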

How the results depend on the processing

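Among the 10 genes the main count was 1 that rose and 0 that fell. The count of rises became 2 with the genes below the median level left out, with a trended robust prior and with array weights, each time by adding Erbb3, and 0 against a minimum change of 1.2-fold. The count of falls became 1, Rnf41, under quantile normalization of all probe sets, both filters on level, the trended robust prior and array weights, and 2 (Rnf41 and Erbb2) under quantile normalization over the tested genes only. Leaving out each array in turn gave 1 rise and 0 falls every time. Changes near 0 turned sign for Egfr without NRG1 replicate 2 (-0.019) and without untreated replicate 2 (-0.023), for Lrig2 without untreated replicate 1 (8.9e-04) and for Lrig3 without untreated replicate 3 (0.012), none of them called; without single arrays the changes ran from -0.023 to 0.055 for Egfr, from -0.06 to 8.9e-04 for Lrig2 and from -0.085 to 0.012 for Lrig3.

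Over all genes 2461 rose and 1707 fell. Array weights gave 3207 rises and 2881 falls, and the minimum change 883 rises and 342 falls. Leaving out single arrays gave 1907 to 2596 rises and 1153 to 1801 falls. Quantile normalization over the tested genes only gave 2257 rises and 2396 falls, a share of rises of 48.5% in place of 59%. No setting moved the median change of all genes by more than 0.037. The pathway genes (27 rises and 12 falls) gave 11 and 2 against the minimum change, and 23 to 29 rises and 7 to 11 falls without single arrays, with the 7 falls without NRG1 replicate 1. The cause of these shifts was not tested, other than that the minimum change is a stricter test by construction. Deviations from the group means of same-numbered arrays had correlations of -0.095, -0.164 and 0.074. Those of differently numbered arrays ran from -0.196 to 0.247. Such values cannot show whether the samples were cultured or processed as pairs. With the number as a replicate block 2198 genes rose and 1411 fell, with Cbl at 0.28 (limma, adjusted p = 0.0196). Of the members 4 lay below the median gene, where signal over background limits what can be seen.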
